A study of Rattus norvegicus with 6 samples.

Results

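The comparison sets ROSE199 cells that stably carry HMGA2 against untreated ROSE199 cells on 2 of the 6 spotted 2-colour arrays of the series. ROSE199 is a line of rat ovarian surface epithelium, the cell layer that covers the ovary. The HMGA2 cells had been transfected with the pEF6 vector holding an HMGA2 construct and were kept in 10 µg/ml blasticidin, the drug to which the vector gives resistance. The untreated cells had neither vector nor drug, and both kinds grew in DMEM with 10% fetal calf serum and 2 mM glutamine until sub-confluent. Total RNA was labelled with 20 µg per reaction, HMGA2 RNA in Cy5 and ROSE199 RNA in Cy3 on replicate 1 and the other way round on replicate 2. All 311 features of the array, 293 with a gene name and 18 unnamed clones, belong to the comparison. Whether the HMGA2 cells were a pool or a clone, and whether the 2 arrays came from separate cultures, is not stated, so they are treated as 1 pair of RNA samples labelled in both orientations. There is therefore no test between conditions and no p-value. HMGA2, transfection and blasticidin selection cannot be told apart in a comparison with untreated cells, and 1 array of ROSE199 cells with the empty vector, also selected in 10 µg/ml blasticidin and labelled in Cy5, is given beside it.

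HMGA2 is a small chromatin protein with AT-hooks, short basic motifs that enter the minor groove of AT-rich DNA. It has no activation domain of its own; it bends DNA and helps other transcription factors to assemble. The gene is active in the embryo, is low in most adult tissues, and is switched on again in many human tumours, among them carcinomas of the ovary. The series asks how far HMGA2 carries the expression programme of RAS-transformed cells, and this comparison asks what HMGA2 does in the same epithelium without RAS transformation.

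Each value below is a log2 ratio of HMGA2 RNA over ROSE199 RNA after background correction and intensity-dependent centring, with replicate 2 turned to the same direction. A mean carries the standard error (SE) of the 2 arrays, which holds dye effects as well as labelling error. A feature is called past the fold when its mean is at least 1 in size, a 2-fold difference, and both arrays have the same sign. By that rule 21 of 311 features (6.75%) were past the fold, 14 higher (4.5%) and 7 lower (2.25%) with HMGA2; 12 (3.86%) and 7 (2.25%) were at least 1 in size on each array. The larger part of the array stood close to 0: 247 features (79.4%) had a mean within 0.5 of it, the median over all features was -0.01, and 229 (73.6%) had the same sign on both arrays. In the authors' deposited table of log2 ratios, 9 features were higher and 7 lower by the same rule, all of them among the 21. The gene lists below were chosen with earlier results of these data known, so the share of a list past the fold only describes it.

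HMGA2 binds AT-rich stretches such as runs of A and T, and so 4 promoters of genes past the fold are shown, 2 higher and 2 lower, picked from the 5 that hold such a run. These are the 250 bases before the annotated gene start in RefSeq (rat build GRCr8), 5′ to 3′ on the gene's strand, with runs of at least 6 A or T bases in capitals. Peripherin and Mama (Lgals3bp) were higher with HMGA2, Thrombospondin 1 and T16 (Efemp1) lower.
Peripherin (Prph), chr7:132097039-132097288, plus strand: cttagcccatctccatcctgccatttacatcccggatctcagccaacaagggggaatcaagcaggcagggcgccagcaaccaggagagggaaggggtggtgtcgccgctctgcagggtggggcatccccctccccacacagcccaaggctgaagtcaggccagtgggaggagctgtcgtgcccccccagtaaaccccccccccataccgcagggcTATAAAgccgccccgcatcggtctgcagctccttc
Mama (Lgals3bp), chr10:104127849-104128098, minus strand: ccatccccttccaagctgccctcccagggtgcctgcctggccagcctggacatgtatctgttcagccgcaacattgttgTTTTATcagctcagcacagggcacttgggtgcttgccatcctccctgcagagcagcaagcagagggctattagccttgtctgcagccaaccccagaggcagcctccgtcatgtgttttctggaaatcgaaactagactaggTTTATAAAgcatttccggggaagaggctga
Thrombospondin 1 (Thbs1), chr3:125510000-125510249, plus strand: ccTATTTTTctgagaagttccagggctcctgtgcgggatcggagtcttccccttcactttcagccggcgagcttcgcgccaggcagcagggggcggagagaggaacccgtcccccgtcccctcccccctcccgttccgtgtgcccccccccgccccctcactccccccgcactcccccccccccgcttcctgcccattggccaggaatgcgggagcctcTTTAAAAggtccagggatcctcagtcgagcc
T16 (Efemp1), chr14:106811614-106811863, plus strand: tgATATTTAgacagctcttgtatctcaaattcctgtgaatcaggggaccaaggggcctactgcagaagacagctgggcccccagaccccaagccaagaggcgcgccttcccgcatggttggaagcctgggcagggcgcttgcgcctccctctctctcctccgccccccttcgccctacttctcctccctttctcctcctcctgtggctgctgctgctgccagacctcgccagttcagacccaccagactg
The 4 promoters have 35.6%, 45.2%, 32.4% and 38.8% A or T in the order shown. Of the 21 features past the fold, 13 were matched to a RefSeq gene and 10 of these had a promoter in the table. Such a run of A or T, read on either strand, stands in 2 of the 6 promoters of higher genes and in 3 of the 4 of lower genes. It stands in 68.6% of all 33465 rat promoters of that table over the same 250 bases, whose median A and T content is 48.8%. The 6 promoters of higher genes include that of Hmga2 itself, the gene held on the construct, which has no such run. A run is a description of the letters only, and whether HMGA2 binds there was not tested.

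HMGI-C, the array's older name for HMGA2, was the most strongly higher feature. Its log2 ratio was 3.70 on replicate 1 and 3.33 on replicate 2, a mean of 3.51 ± 0.18 (SE, 2 arrays) or 11.4-fold. The background-subtracted intensity was 2769 and 2558 in the HMGA2 channels and 233 and 159.5 in the ROSE199 channels, which were all above the blank spots. HMGI-C thus matched the labels on both arrays, and on the empty-vector array its ratio was 0.26. The size of the ratio moved with the background correction, from 2.81 with none to 3.78 with a smaller offset.

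**Figure D1:**
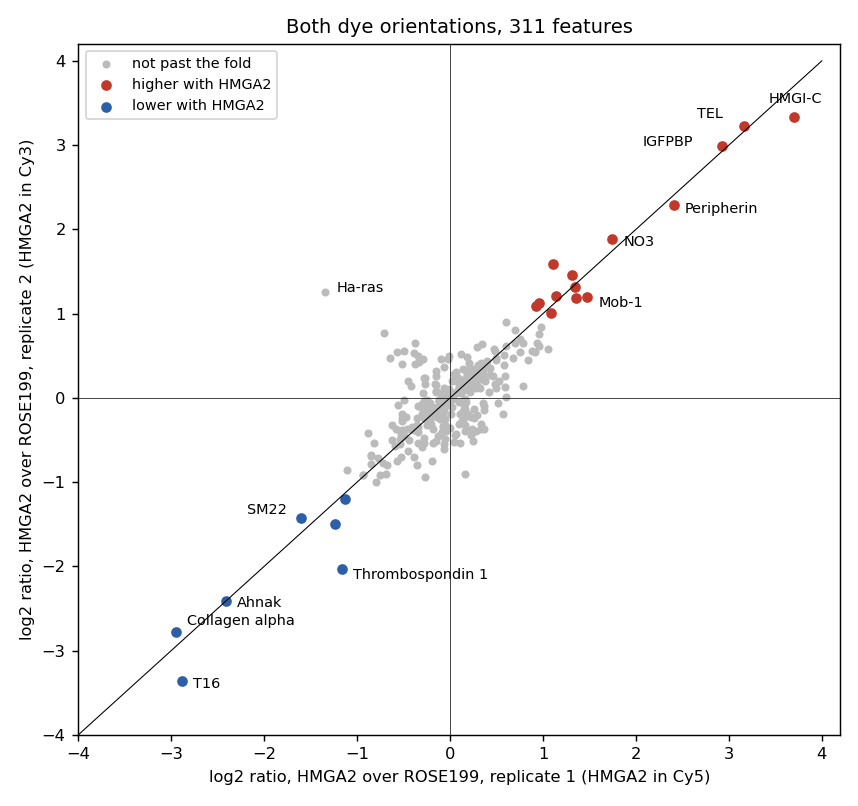
Log2 ratio of HMGA2 over ROSE199 RNA on replicate 1 (HMGA2 in Cy5, x axis) against replicate 2 (HMGA2 in Cy3, turned, y axis), 1 point per feature. Points past the fold are coloured by direction; HMGI-C, TEL and IGFPBP lie highest and T16, Collagen alpha and Ahnak lowest on both axes, while Ha-ras stands far off the diagonal at -1.34 and 1.25.

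Transcriptional regulators were also among the higher features. TEL (Etv6), an ETS-family repressor of transcription, had log2 ratios of 3.16 and 3.23, a mean of 3.20 ± 0.03 or 9.18-fold, with intensities of 14296 and 14512 in the HMGA2 channels against 1427 and 1309 in the ROSE199 channels. N-myc, a MYC-family factor of embryonic and neuroendocrine cells, read 1.35 and 1.18 (mean 1.27 ± 0.08). MEN1, which encodes menin, a scaffold of histone methyltransferase complexes and a tumour suppressor, read 0.92 and 1.09 (mean 1.01 ± 0.08) and lost the call under 4 of 13 alternative settings. TEL was thus as far up in both dyes, whereas MEN1 stood at the threshold. Of the 16 transcription factors and cofactors listed, these 3 were past the fold upward and none downward, with a median of -0.04. That median was 0.17 on replicate 1 and -0.25 on replicate 2. Over all 311 features 4.5% were higher and 2.25% lower. N-myc and c-myc, which bind the same DNA element, stood on opposite sides of 0: c-myc read -0.78 and -0.71 and did not pass the fold. FHL2, a LIM-domain cofactor, came closest to the lower threshold at -1.11 and -0.85. Among the other ETS factors of the array, Ets1 read 0.29 and 0.61, and Ets-2, Elk1, ER81 and Sap1 changed sign between the arrays.

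Of the secreted growth regulators, IGFPBP, an insulin-like growth factor binding protein whose number the array does not give, was the only one of 10 past the fold (4.5% of all features were higher). Its log2 ratios were 2.93 and 2.99, a mean of 2.96 ± 0.03 or 7.77-fold. Proteins of this family bind insulin-like growth factors and set how much of them reaches the receptor. The growth factor IGF-2 itself read -0.15 and 0.32. FISP-12, the rodent connective tissue growth factor, read -0.68 and -0.90, TGF beta -0.35 and -0.32, and the matricellular protein Cyr61 -0.24 and -0.29; none of these passed the fold.

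Peripherin, an intermediate filament protein of peripheral neurons, was 5.08-fold higher, with log2 ratios of 2.41 and 2.28 (mean 2.35 ± 0.06). Its intensity was 13954 and 14571 with HMGA2 and 2334 and 2586 in ROSE199. Sortilin (Sort1), a sorting receptor that carries proteins from the Golgi to endosomes and is abundant in neurons, read 1.08 and 1.01 (mean 1.04 ± 0.04). These 2 of 7 listed neuronal genes were past the fold upward and none downward (4.5% and 2.25% over all features), with a list median of -0.09. That median was 0.22 on replicate 1 and -0.10 on replicate 2. The other members lay on both sides of 0: NAP-22, a membrane protein of growing nerve endings, read -0.94 and -0.92, and Neuritin 0.27 and 0.12.

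H-rev107 (Plaat3), a phospholipase first described as an inhibitor of RAS-driven growth, read 1.35 and 1.31, a mean of 1.33 ± 0.02. An entry of similar name, Hrev107-2, did not follow it. That entry was dim and read 0.04 and -0.52, and whether it stands for the same gene is not given. H-rev107 and MEN1 made 2 higher and 0 lower of 9 listed tumour suppressors and growth inhibitors (median 0.19), where 4.5% of all features were higher. The list median was 0.57 on replicate 1 and -0.09 on replicate 2, so its sign depends on the array. The call of MEN1 was not stable, as given above. P53 binding protein at 1.05 and 0.58 and DOC-2 (Dab2), an endocytic adaptor that is lost in many ovarian carcinomas, at 0.96 and 0.62 stayed just under the threshold. P16 (ink4a), which inhibits the cyclin D kinases, read -0.68 and -0.79, and Par4, a pro-apoptotic protein, -0.35 and -0.34.

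The chemokine, interferon and eicosanoid list had 2 of 7 members past the fold upward and 1 downward (4.5% and 2.25% over all features), with a median of 0.07. Over the alternative settings that median ran from -0.19 to 0.54. RPT-1r, named after a regulator of T-cell genes, read 1.31 and 1.46 (mean 1.38 ± 0.08). Mob-1 read 1.48 and 1.20 (mean 1.34 ± 0.14); the name has been used for a rat chemokine induced by RAS, and no RefSeq gene was assigned to it here. Cox2 (Ptgs2), the inducible enzyme of prostaglandin synthesis, was lower at -1.13 and -1.20 (mean -1.16 ± 0.04, 2.24-fold), while its constitutive relative Cyclooxygenase 1 read -0.17 and 0.16. Interferon induced gene read 0.93 and 0.65, below the threshold.

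The other higher features were NO3 at 1.75 and 1.89 (mean 1.82 ± 0.07, 3.52-fold), Hepatocellular carcinoma antigen at 1.11 and 1.59 (1.35 ± 0.24), Trancript associated at 1.14 and 1.20 (1.17 ± 0.03), spelt as on the array, and Mama (Lgals3bp) at 0.96 and 1.12 (1.04 ± 0.08). Mama is a secreted glycoprotein that binds galectins. No gene is assigned here to NO3, Hepatocellular carcinoma antigen or Trancript associated beyond these names.

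The lower features were 3 matrix genes, the scaffold Ahnak, the actin-binding SM22, the enzyme Cox2 and an unnamed clone. T16, which RefSeq lists as an older name of Efemp1, the extracellular matrix glycoprotein fibulin-3, had log2 ratios of -2.89 and -3.36, a mean of -3.13 ± 0.24 or 8.73-fold lower. Its intensity was 171 and 254 in the HMGA2 channels against 2219 and 2478 in the ROSE199 channels. The T16 spots had an SD of 0.78 on replicate 1 and 0.16 on replicate 2. Collagen alpha, a collagen chain whose type the array does not give, read -2.95 and -2.78 (mean -2.87 ± 0.09, 7.29-fold lower). It was among the bright features in ROSE199, with 20904 and 21787 there and 3068 and 3645 with HMGA2. Thrombospondin 1 (Thbs1), a matrix glycoprotein that limits vessel growth and activates TGF beta, was lower by 3.02-fold but less evenly, at -1.17 and -2.03 (mean -1.60 ± 0.43). Its 5 spots had an SD of 0.66 on replicate 1 and 0.03 on replicate 2, so replicate 1 was the less precise measurement.

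These 3 of 8 listed matrix genes were past the fold downward and none upward, with a median of -0.64. Of all 311 features 2.25% were lower and the median was -0.01. The list was drawn up with earlier results of these data known, so its share past the fold is partly set by that choice. Over the alternative settings the list median ran from -0.83 to -0.35. Lox, which crosslinks collagen and elastin, read -0.57 and -0.75, and Fibronectin -0.53 and -0.70, both short of the fold. Other matrix genes were near 0 or above it: Osteonectin (SPARC) read -0.09 and 0.01, and the Lox-related protein LOXRP 0.29 and 0.24. Fibrillin-1 could not be placed, since it read 0.16 on replicate 1 and -0.90 on replicate 2.

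SM22 (Tagln), an actin-binding protein of smooth muscle and contractile fibroblasts, read -1.60 and -1.42, a mean of -1.51 ± 0.09 or 2.86-fold lower. It was the 1 of 6 actin-binding and contractile genes past the fold (2.25% of all features were lower), and the list median was -0.12. Alpha actinin, the actin crosslinker, read -0.75 and -0.91 and TPM2, a tropomyosin, -0.11 and -0.25. Ril (Pdlim4), which binds alpha actinin, read 0.97 and 0.84, and Cav-1, the coat protein of caveolae, 0.70 and 0.80. The list therefore held values of both signs, and under beta actin centring its median was 0.28. Ahnak, a giant scaffold protein beneath the plasma membrane, was lower at -2.41 and -2.42, a mean of -2.41 or 5.33-fold. The unnamed clone ESTAA791601 was the last of the lower features, at -1.24 and -1.49 (mean -1.36 ± 0.13), and the only one past the fold among the 18 unnamed clones, which ran from -1.36 to 0.58.

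**Figure D2:**
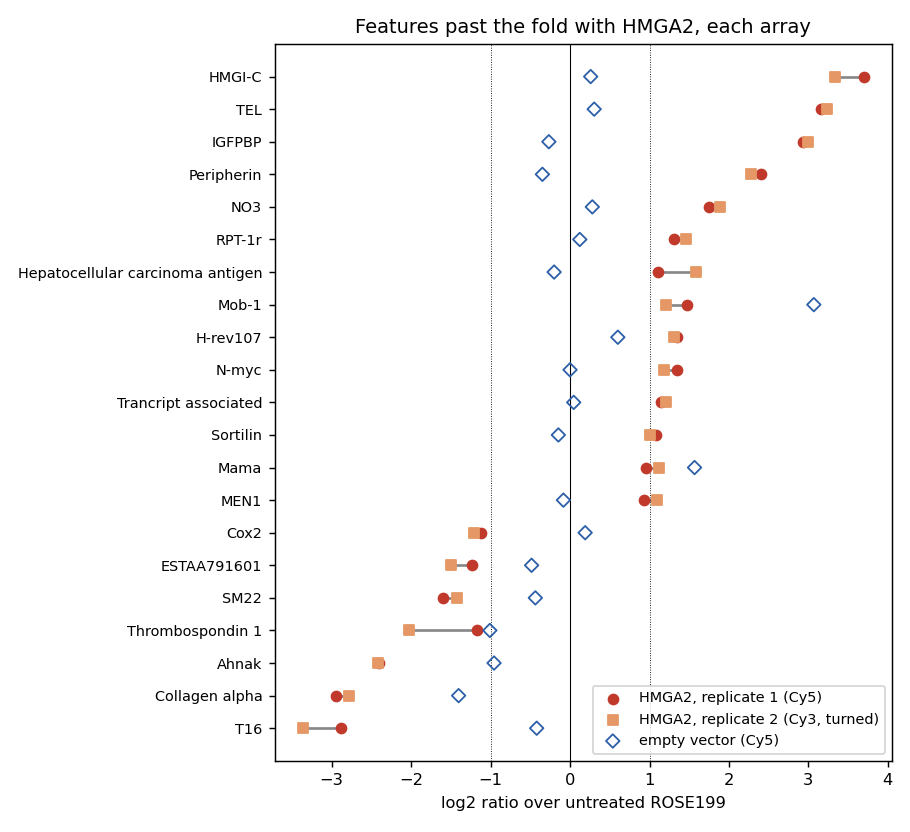
Log2 ratio over ROSE199 of the 21 features past the fold, on HMGA2 replicate 1 (Cy5), on HMGA2 replicate 2 (Cy3, turned) and on the single empty-vector array (Cy5). The 2 HMGA2 arrays lie together for most features, while Mob-1 and Mama are further up with the empty vector (3.07 and 1.57) than with HMGA2.

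The features just outside the threshold were Ril (mean 0.91), Granulin (0.86), P53 binding protein (0.81), Interferon induced gene (0.79) and DOC-2 (0.79) above 0, and FHL2 (-0.98), NAP-22 (-0.93), Balb aldose reductase related (-0.93), E-cadherin (-0.90) and Alpha actinin (-0.83) below it. The spots of FHL2 (SD 0.49 and 0.40) and of E-cadherin (0.55 and 0.29) were uneven on both arrays. Just inside were MEN1 (1.01), Mama (1.04) and Sortilin (1.04), and on the lower side Cox2 (-1.16). All 21 calls rest on a threshold of size, and a feature at 0.91 with an SE of 0.07 is not shown to differ from one at 1.04.

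None of the 6 epithelial markers listed passed the fold. They were above the blank spots, as was every feature but SFB1 posphatase, so presence alone does not set them apart. Mesothelin, under its older name Megakaryocyte potenciating factor, marks mesothelium and ovarian surface epithelium; it had intensities of 21510.2 and 14239 in the ROSE199 channels and ratios of 0.15 and 0.10. WT1, a zinc finger factor of the same cells, read 0.18 and 0.28, with ROSE199 intensities of 1508 and 1543. The cadherins differed from each other: E-cadherin, the junction protein of most epithelia, read -0.80 and -0.99, and P-cadherin 0.07 and 0.06. Basonuclin, a zinc finger protein of epithelial cells, read 0.75 and 0.54. In a culture measured in bulk, fewer cells of a type and less RNA per cell cannot be told apart.

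The RAS-MAPK list holds early response genes and the feedback inhibitors that the pathway switches on. None of its 17 members was past the fold, 9 were below 0 on both arrays and 2 above (118 and 111 of all 311 features), and the median was -0.15 (-0.41 to -0.05 over the alternative settings). K-ras itself read -0.29 and -0.11. The ERK phosphatase Mkp3 was the lowest at -0.85 and -0.78, followed by the AP-1 subunit Fra-1 at -0.72 and -0.77, then c-myc and the EGFR ligand HB-EFG at -0.82 and -0.53. JunB read -0.88 and -0.42, and the dual phosphatase Mkp1 -0.63 and -0.50. Sprouty2, another feedback inhibitor, was on the other side at 0.37 and 0.42. JunB and c-myc also stand in the list of HMGA proteins and reported HMGA targets, whose 4 members had a median of -0.69 with HMGI-C as the only one above 0.

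The proteases and their inhibitors had no member of 8 past the fold (median -0.05, with -0.22 on replicate 1 and 0.04 on replicate 2). TIMP-2, which inhibits matrix metalloproteinases, was the highest at 0.61 and 0.91. None of the 6 cell cycle genes passed either (median -0.04), with the histone variant H3.3 at 0.78 and 0.66, Ki-67, a mark of cycling cells, at -0.10 and -0.43, and Serum inducible kinase (a polo-like kinase) at -0.54 on both arrays. Of the 5 housekeeping genes none was past the fold. Alpha tubulin was saturated with HMGA2 on both arrays, so it is left out of the list median given here. Its ratio stayed in the housekeeping centring and in the totals over all features. The other 4 housekeeping genes had a median of -0.18, which was 0.23, on the other side of 0, when beta actin set the zero point. GAPDH read -0.25 and -0.10, HPRT -0.01 and 0.09, and Beta actin -0.35 and -0.41.

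**Figure D3:**
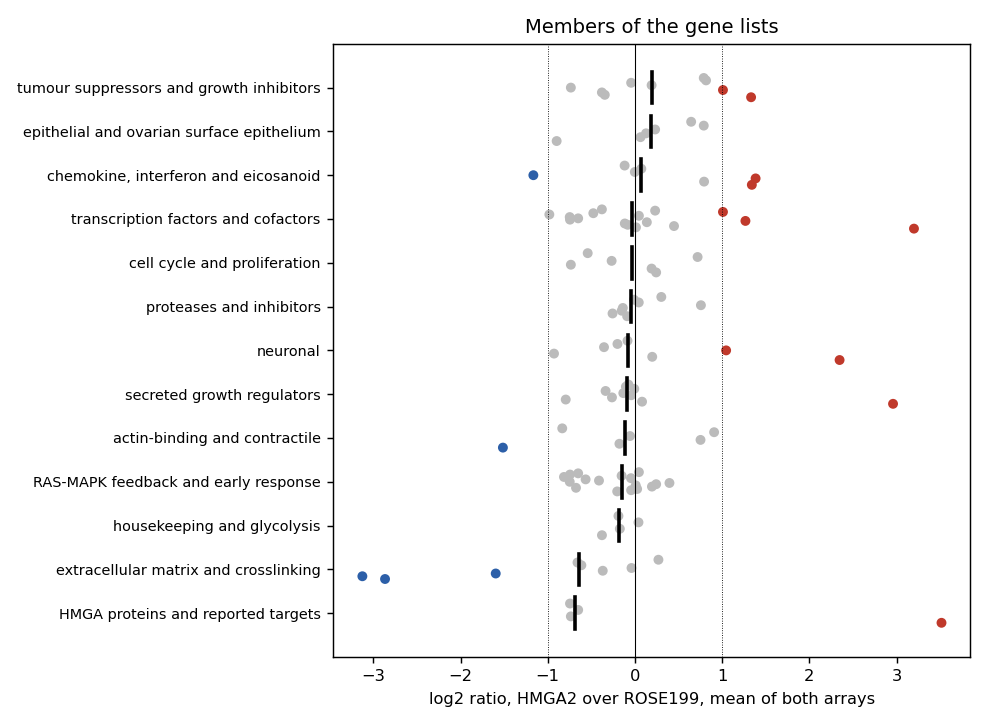
Mean log2 ratio of HMGA2 over ROSE199 for each member of the gene lists, 1 point per feature, with the list median as a bar and the fold threshold as lines; the saturated Alpha tubulin is left out. Members of the matrix list reach from -3.13 to 0.27 with a median of -0.64, and most other lists lie around 0 with single members past the fold.

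The empty-vector array shares the ROSE199 reference with the HMGA2 arrays, was labelled in Cy5 only and was quantified on another day, so its values are set beside those of HMGA2 replicate 1, also in Cy5, with no test. A dye effect on a single array cannot be told apart from a difference. On it 6 features were at least 1 higher (1.93% of 311) and 4 at least 1 lower (1.29%). For the strongest higher features the empty vector read close to 0 or below it: 0.30 for TEL (3.16 with HMGA2), -0.27 for IGFPBP (2.93), -0.35 for Peripherin (2.41), 0.28 for NO3 (1.75) and -0.00 for N-myc (1.35). H-rev107 lay between, at 0.60 against 1.35. Mob-1 was the exception in size, at 3.07 with the empty vector and 1.48 with HMGA2. Its intensity was 3510 with the empty vector (404 for ROSE199 on that array) and 619 with HMGA2 on replicate 1 (313 for ROSE199). Intensities were not scaled between arrays. Mama too was higher with the vector alone (1.57 against 0.96), as was Interferon induced gene (1.58 against 0.93).

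Among the lower features the empty vector was itself below ROSE199 for the matrix genes. Collagen alpha read -1.40 with the vector and -2.95 with HMGA2, Thrombospondin 1 -1.01 and -1.17, Ahnak -0.96 and -2.41, T16 -0.42 and -2.89, and SM22 -0.44 and -1.60. Thrombospondin 1 was at -2.03 on HMGA2 replicate 2, the more precise of its measurements, so its distance from the vector is uncertain. T16 read -2.89 and -3.36 on the HMGA2 arrays, but its spots were also uneven on replicate 1 (SD 0.78). Lox was lower with the vector (-1.09) than with HMGA2 (-0.57). Cox2 was on the other side of 0 with the vector, at 0.19 against -1.13. Other features past the fold with the vector were near 0 with HMGA2: S-100 related read 1.08 (-0.04 with HMGA2) and P9ka42a, the calcium-binding protein S100A4, 1.09 (-0.09), while PRP stood just past the lower threshold with the vector and at -0.15 with HMGA2. Balb aldose reductase related read 1.10 with the vector and -0.93 with HMGA2, on opposite sides of 0.

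The 2 orientations give the measurement error feature by feature. Over all 311 features the turned ratios correlated at 0.838 across features, which share the same 2 RNA samples and are not independent replicates. The SE of a feature had a median of 0.08 and a 95th percentile of 0.37, and 7 features exceeded 0.5. Error followed brightness: the 104 dimmest features had a median SE of 0.20 and held all 7 of the widest, the 103 in the middle had 0.09, and the 104 brightest 0.05. Features past the fold came from every class, 4, 8 and 9 in that order.

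**Figure D4:**
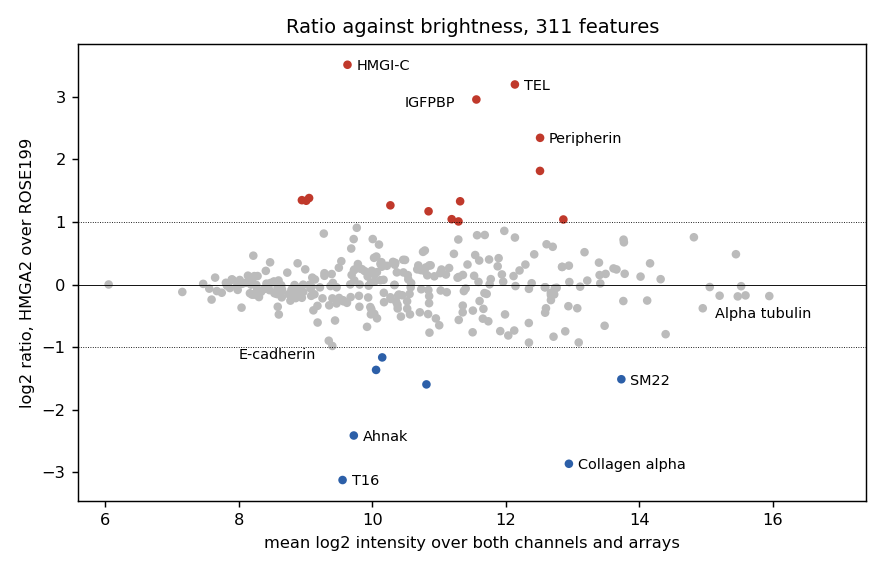
Mean log2 ratio of HMGA2 over ROSE199 (y axis) against the mean log2 intensity over both channels and arrays (x axis), 1 point per feature, with features past the fold in red (higher) and blue (lower) and dotted lines at the threshold. Features past the fold lie over most of the range of brightness, and HMGI-C, Ahnak and T16 are dimmer than TEL, Peripherin, Collagen alpha and SM22.

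Ha-ras had the widest gap. It read -1.34 on replicate 1 and 1.25 on replicate 2, past the fold on both arrays in opposite directions, and its mean was -0.04 ± 1.30. Its intensity was 1210 and 1227 in the Cy3 channels and 333 and 383 in the Cy5 channels, so that its brightness went with the dye on both arrays. Of the 10 features with the widest gaps, 8 were brighter in Cy3 than in Cy5 on both arrays, among them RET (-0.71 and 0.77), UPA, the urokinase protease (-0.57 and 0.55), and MMP1 (-0.65 and 0.47). This order was not counted over all features, and it does not set these features apart. Dim features with almost no gap could have it too, such as Dnmt3b, with 270 and 271 in Cy3 against 109 and 146 in Cy5. A single orientation would have placed P53 binding protein and FHL2 past the fold on replicate 1, and Ha-ras on either array. Averaging both orientations cancels a dye effect that is equal on both arrays. The means of Ha-ras (-0.04), RET (0.03), UPA (-0.01) and MMP1 (-0.09) were near 0, whereas P53 binding protein (0.81) and FHL2 (-0.98) kept a mean just short of the fold.

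**Figure D5:**
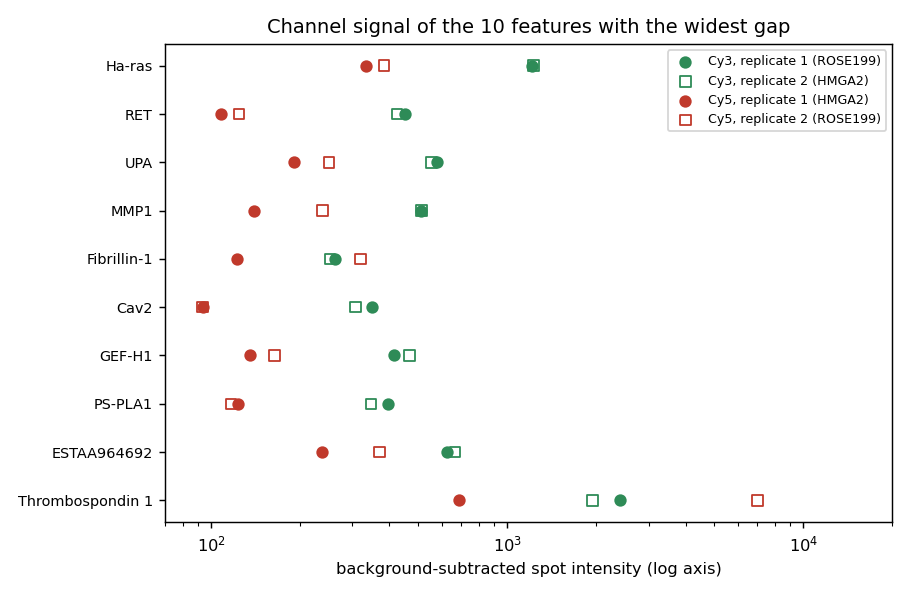
Background-subtracted intensity (log axis) of the 10 features with the widest gap between orientations, in Cy3 (green) and Cy5 (red), filled for replicate 1 and open for replicate 2. For 8 of them, among them Ha-ras, RET, UPA and MMP1, both Cy3 points lie to the right of both Cy5 points; Fibrillin-1 and Thrombospondin 1 do not share that order.

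The calls were recomputed under 13 other settings that keep all features. The call held under each of them for 15 of the 21: 8 higher features (HMGI-C, TEL, IGFPBP, Peripherin, NO3, H-rev107, N-myc and Trancript associated) and all 7 lower ones. Hepatocellular carcinoma antigen, RPT-1r, Mob-1, Sortilin, Mama and MEN1 each lost it under at least 1. When the beta actin spots set the zero point of each array, in place of the curve over intensity, 22 features were higher and 7 lower (75.9% higher, against 66.7%), and the median of all features moved by 0.24.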

How the data were processed

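Spot intensity (signal mean and median background per spot and channel) was taken from the quantification files as deposited, per the file headers. The deposited table of log2 ratios was an alternative; its direction, sample over ROSE199, was read from correlations of 0.844 and 0.948 with the values computed here (column medians -0.04 and 0.03), and its background correction and centring are not given in the sources used here. Each array has 1760 spots, 37 blank and 325 of beta actin, and 4 to 6 for other features. Poor spots (25 and 21) were left out. The normexp method (offset 50) corrected the background, and a loess curve within each array centred the ratios (span 0.3, 4 iterations; blank and beta actin spots without weight) with R 4.3.3 and limma 3.58.1. Spots of a name were averaged, replicate 2 was turned and both arrays were averaged. The median spot SD was 0.06 and 0.04 (log2), and the median intensity 1287 and 1440 with HMGA2 and 1337 and 1217 in ROSE199; the number of arrays limits the precision. A feature was above blank past the blank mean plus 3 SD. SFB1 posphatase was not, in either channel. Alpha tubulin was saturated in the HMGA2 channels of both arrays and in the ROSE199 channel of replicate 2. Guanine NBP G-s was saturated in the HMGA2 channel of replicate 1. Scripts were tested on simulated data. Named are the features past the fold, those nearest the threshold, the widest gaps and members of the lists. Members and lists were chosen with earlier results of these data known, and the lists support nothing by themselves. The array's subgrid of housekeeping PCR fragments was not analysed here. The promoters are from RefSeq (GRCr8); 9 features were matched by a name in the RefSeq table and 4 by hand.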

Additional observations from a re-analysis of the deposited data

How the results depend on the processing

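Features higher with HMGA2 numbered 22 when beta actin set the zero point and 9 in the authors' deposited table of log2 ratios, against 14. That table has 56.2% of its calls higher, against 66.7%. The other settings gave 11 to 15 higher and 7 to 9 lower features. HMGI-C read 2.81 without background subtraction, 3.78 with a normexp offset of 10 and 2.82 in the deposited table, against 3.51. Leaving out either array gave 13 to 15 higher features, 7 to 9 lower features and 3.33 to 3.70 for HMGI-C; 1 dye orientation is then left. Of the single values and list medians under these settings, 1116 moved by less than their spread, 342 by more, and 0 called values reversed. Part of the 1116 was fixed in advance. A single value always moves by less than this spread when 1 array is left out, and it keeps its value among the brighter features. A called value has 1 sign on both arrays, so it cannot reverse when an array is left out. The cause of the shifts was not tested. Each ratio already pairs HMGA2 RNA and ROSE199 RNA on the same array. Both arrays were treated as 1 pair of RNA samples, so no test over pairs was possible and the result comes from no test. The ROSE199 level of HMGI-C (233 and 159.5) was dim. Leaving the saturated Alpha tubulin out of the housekeeping list was chosen after seeing the data. With 1 RNA sample per side the spread between cultures is unknown.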

Other observations

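Lists drawn up after the values were known had no member past the fold. Of 10 stress and apoptosis genes 8 were above 0 on both arrays, as were 111 of all 311 features, and the median was 0.31 where all features had -0.01. GADD153 (CHOP), a factor of the unfolded protein response, read 0.91 and 0.54, and P5 protein, a disulfide isomerase, 0.70 and 0.65; FLIP, which blocks caspase activation, read -0.15 and -0.52. On the empty-vector array the list median was 0.10, with GADD153 at 0.60.

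The 4 ID proteins, inhibitors of helix-loop-helix factors, had means from 0.03 (ID3) to 0.26 (ID1 and ID4). Of 9 chromatin and DNA methylation genes none passed the fold (median -0.00), with the Polycomb-related Sex comb on midleg homolog the lowest at -0.85 and -0.69, and at 0.60 with the empty vector. Of 7 replication and repair genes 4 were above 0 on both arrays (111 of all 311 features), with a median of 0.33, led by DNA polymerase epsilon at 0.47 and 0.58. On the empty-vector array the median of these genes was 0.29, close to that with HMGA2, and DNA polymerase epsilon read 0.29.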
